A study of Mus musculus with 3 samples.

Results

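The deposited list of small RNA sequences from mouse testis holds 2219118 distinct sequences, and 42069 of them are 18 to 23 nt long (1.90% of the list, exact Clopper-Pearson 95% interval 1.88 to 1.91%). These short sequences were taken by length alone and are described against the 2176742 listed sequences of 24 to 32 nt, called the longer sequences. The sequences came from 3 immunoprecipitated libraries with 1 library per group. In the first, the RNA was recovered with Tdrd1, a Tudor-domain protein that binds Mili, from adult C57BL/6 testes. In the second it was recovered with Mili (Piwil2), a Piwi protein that binds piRNAs, from adult C57BL/6 testes labelled wild type. In the third it was recovered with Mili from C57BL/6 testes of the Tdrd1 knockout at 15 days after birth, so genotype and age cannot be told apart in that library. All 3 started from extract of whole testes, and RNA of about 28 to 30 nt was cut from a gel before the libraries were made. This range is above every length of the short sequences and within the lengths of the longer ones. The list pools the 3 libraries: it gives each sequence once, with its chromosome and position on NCBI mouse build 37 (mm9), and no library, read number or strand. No comparison between the groups and no test across replicates could therefore be made, and every share below counts distinct sequences, not molecules. Intervals are exact Clopper-Pearson 95% intervals and cover counting error only; they treat each sequence as independent, while many overlap one another, and are too narrow to that extent.

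piRNAs are small RNAs that guide Piwi proteins to silence transposons in germ cells. Their 5′ end, most often a U, is held in the Piwi protein, while the 3′ end is made by trimming a longer precursor and is then methylated. In meiotic mouse testis most piRNAs come from a limited number of long, transposon-poor precursor loci, and many others come from messenger RNAs. MicroRNAs are shorter, are cut from hairpins by Drosha and Dicer, and are loaded into Argonaute proteins instead.

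The short sequences mostly sat at the 5′ end of longer ones, and the clearest examples are 5′ ends at which every length from 18 to 23 nt was listed. There were 12 such 5′ ends, 11 of them starting with U and 11 of them inside the richest windows defined below. The 3 with the most longer sequences are shown, each with its 18-nt sequence and the longest listed sequence of at most 30 nt. Capitals mark bases 18 to 23, where the short sequences end.
chr4:61882299-61882316, minus strand, 18 nt: tgttagaactggcagaaa
chr4:61882287-61882316, minus strand, 30 nt: tgttagaactggcagaaAGTAGTctcaaac
chr8:94713557-94713574, plus strand, 18 nt: tggattaggatgcggcag
chr8:94713557-94713586, plus strand, 30 nt: tggattaggatgcggcaGAACTCaaagcct
chr9:67570718-67570735, minus strand, 18 nt: tagaggatgtggcttaaa
chr9:67570706-67570735, minus strand, 30 nt: tagaggatgtggcttaaAAGATAtgctgac
All 3 lay outside annotated exons. At the chromosome 4 end, 9 longer sequences were listed beside the 6 short ones, so that every length from 18 to 32 nt was present. The chromosome 8 and chromosome 9 ends each had 8 longer sequences, up to 31 nt.

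The number of short sequences rose with length without a separate peak. The list held 770 sequences of 18 nt, 1428 of 19 nt, 1891 of 20 nt, 3191 of 21 nt, 9477 of 22 nt and 25312 of 23 nt. The 23-nt sequences alone were 60.2% of the short ones (59.7 to 60.6%), and 22 nt, the usual microRNA length, held 22.5% (22.1 to 22.9%). Just beyond the limit of 23 nt the list held 60922 sequences of 24 nt, and its most frequent length was 27 nt, with 570505 sequences. The step from 21 to 22 nt was the largest in proportion among the short lengths, and several features below also change there.

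The short sequences were concentrated in the loci richest in longer ones. Windows of 20 kb were ranked by their number of longer sequences only, and the first 100 of 62069 windows are called the richest windows. They held 27374 of the short sequences (65.1%, 64.6 to 65.5%) but 19.4% of the longer ones. The share in these windows lay between 62.7 and 69.2% for each length from 18 to 23 nt. It was 53.5% at 24 nt, 18.4% at 27 nt and 15.5% at 28 nt. Put the other way, short sequences were 6.08% of the sequences of 18 to 32 nt inside the richest windows and 0.831% outside them. The rise came only at high density: the share was 0.755% in windows with 1 to 9 longer sequences, 0.661% with 10 to 29, 0.663% with 30 to 99 and 0.719% with 100 to 299. It was 0.980% with 300 to 999, 3.12% with 1000 to 2999 and 6.65% (6.57 to 6.73%) with 3000 or more. Read numbers are not in the list, so how far this pattern follows the sequencing depth of each locus was not tested.

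The 3 windows with most short sequences adjoined one another on chromosome 17. The window chr17:27460001-27480000 held 1341 short and 13772 longer sequences (8.87% short), chr17:27480001-27500000 held 1272 and 11169 (10.2%), and chr17:27440001-27460000 held 1204 and 12217 (8.97%). The next was chr9:67560001-67580000, with 965 short and 11340 longer sequences (7.84%). The other 6 of the first 10 were on chromosomes 2, 15, 18, 14 and 6, with 652 to 790 short sequences and shares from 6.78 to 8.24%. Short and longer sequences lay on the same strand of each window. In chr17:27480001-27500000, 99.9% of the short and 99.4% of the longer sequences with a strand call were on the plus strand. In chr17:27440001-27460000 the plus strand held 0.333% of the short and 0.869% of the longer ones, and in chr6:127740001-127760000, where both strands are used, it held 71.2 and 72.6%.

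Rich windows differed in how many short sequences they carried. Over the 100 richest windows the short share ran from 0.472 to 10.2% with a median of 5.32%, and 58 windows had 5% or more. In 14 of the windows at least 50% of the sequences matched the sense strand of protein-coding exons, and none of these 14 reached 5%: their shares were 0.472 to 3.97% with a median of 1.65%. The other 86 windows ran from 0.578 to 10.2% with a median of 5.50%. The longer sequences differed between the same 2 kinds of window, with a median mean length of 27.3 nt in the 14 and of 26.6 nt in the 86. Low shares were not limited to messenger RNAs: chr7:6580001-6600000, where no sequence matched a protein-coding exon, held 13 short and 2237 longer sequences (0.578%), with a mean longer length of 27.2 nt. A window with the opposite combination was chr17:39980001-40000000, which holds the ribosomal-RNA-like gene Gm42418. Its short share was 7.48% at a mean longer length of 27.4 nt.

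Outside the richest windows the short share varied little between chromosomes. It lay between 0.647% on chromosome 12 and 1.06% on chromosome 10 among the autosomes. The X chromosome had 191 short and 40842 longer sequences (0.465%), none in a richest window. The mitochondrial chromosome had 26 short and 270 longer sequences (8.78%, 5.82 to 12.6%), and the Y chromosome had 4 and 387.

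The 5′ ends of the short sequences were those of longer sequences. Strand was inferred from overlapping listed sequences that shared at least 12 nt, which gave a strand for 38702 short sequences. Of all short sequences, 31839 (75.7%, 75.3 to 76.1%) had exactly the 5′ end of a longer one. With the 5′ end moved by 1 to 10 nt in either direction this share was 37.1% on average and at most 52.7%, at 2 nt upstream. Inside the richest windows 88.6% shared the 5′ end, against at most 66.4% at another position. Outside them 51.6% did, against at most 27.8%, so the excess over the best neighbouring position was 1.33-fold inside and 1.86-fold outside. Short sequences without a strand call were counted as not sharing a 5′ end. They were 3235 of 14695 outside the richest windows and 132 of 27374 inside. The gap between 88.6 and 51.6% therefore includes this difference in strand calls. The 24-nt sequences shared a 5′ end with another longer one in 68.8% of cases and the 27-nt sequences in 43.8%.

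Most short sequences were close in length to a longer one at the same 5′ end. The shortest longer companion was 1 nt longer in 34.4%, 2 nt longer in 26.8% and 3 nt longer in 15.8% of the 31839. Its median was 2 nt longer, and that of the longest companion was 6 nt longer. Of the 32458 5′ ends with a short sequence, 84.8% had 1, 12.03% had 2 and 2.53% had 3. Most of the other short sequences also lay on a longer one. Those that lay inside a longer sequence with its 3′ end but another 5′ end were 7.13% of all short sequences, and those inside one with other ends were 3.52%. Sequences that overlapped a longer one in part made 5.33%, and 0.333% had a strand call but no longer sequence over them on that strand. The remaining 3367 had no strand call. A strand call itself needs an overlap of at least 12 nt with another listed sequence. The small share with a call but no longer sequence was therefore largely set by the method.

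Short sequences occurred at 5′ ends with many different longer sequences. Of the 5′ ends with both kinds, 50.3% had 4 or more longer lengths, against 5.97% of the 5′ ends with longer sequences alone. The share of 5′ ends that also had a short sequence was 0.663% with 1 longer length, 5.02% with 3, 18.4% with 5, 45.5% with 7 and 70.4% (38 of 54) with all 9. At an equal number of longer lengths this share was higher inside the richest windows. With 5 longer lengths it was 32.3% (31.4 to 33.3%) inside and 6.38% (5.92 to 6.86%) outside. Among 5′ ends with 5 longer lengths that matched protein-coding exons it was 12.2% (9.43 to 15.5%) inside and 4.43% outside, and among those without an exon match it was 33.8% inside and 12.8% outside. The longer companions were also shorter on average where a short sequence was listed: at 5 longer lengths their mean was 26.5 nt with and 27.3 nt without a short sequence.

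Shared 3′ ends were less frequent than shared 5′ ends. A 3′ end shared with a longer sequence was found for 57.5% (57.0 to 58.0%) of the short sequences, and for 46.7% of those of 18 to 21 nt. With the 3′ end moved as for the 5′ ends, the share was 46.0% on average but 66.1% at 3 nt downstream. For 18 to 21 nt it was 70.6% at 7 nt downstream. Unlike the 5′ end, the 3′ end was thus not the most shared position. A longer sequence with the same 5′ end must, however, end downstream of the short one. The downstream maximum is therefore at least in part set by the shared 5′ ends and the length limits. It is not a separate contrast between the ends. The 24-nt sequences shared a 3′ end with another longer one in 53.4% of cases, the 27-nt sequences in 28.0% and all longer sequences in 31.0%. The short sequences shared both kinds of end more often than those of 27 nt, but also lay more often in the richest windows. This comparison therefore does not separate shared ends from local density.

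The letters that follow the 3′ end were uneven at the shortest lengths. They were read from overlapping listed sequences of the same strand, which reached 5 nt past the end for 34997 short sequences. For the 18-nt sequences the most common following letters at positions 1 to 7 after the 3′ end were U, C, G, U, A, U and G, at 64.8, 46.3, 47.2, 38.3, 42.7, 41.1 and 54.4%. After the longer sequences the same letters at positions 1 to 5 made 25.7, 19.8, 26.3, 24.7 and 28.3%. The U at position 1 fell with length, to 59.5% at 19 nt, 54.5% at 20 nt, 50.9% at 21 nt, 32.98% at 22 nt and 27.9% at 23 nt. A match at 3 or more of the first 5 letters was found for 44.2% of the readable 18-nt sequences (289 of 654), 38.0% at 19 nt, 33.3% at 20 nt and 31.2% at 21 nt. It was 15.1% at 22 nt, 10.7% at 23 nt, 8.90% at 24 nt and 8.06% over the longer sequences. Read 6 to 10 nt after the 3′ end, the same 5 letters matched at 3 or more positions for 8.76% of the 18-nt sequences. Outside the richest windows the share for 18 to 21 nt was 50.6% (48.2 to 53.0%) and inside them 28.5% (27.2 to 29.8%). This pattern was looked for after the excess of U had been seen.

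All 5 letters followed 129 of the readable short sequences, and 96 of these lay outside the richest windows. At 23 nt they followed 21 of 20534, so the 23-nt case below is a rare one. In 3 cases with all 5 letters, the short sequence and a longer one from the same 5′ end show these letters. Each was taken from a different place outside annotated exons in the richest windows, and capitals mark the 5 letters after the end of the short sequence.
chr17:27456316-27456333, minus strand, 18 nt: taagggaaattttgtagt
chr17:27456305-27456333, minus strand, 29 nt: taagggaaattttgtagtTCGTAaagtac
chr15:78483436-78483453, minus strand, 18 nt: tggtcatctctaaaacaa
chr15:78483424-78483453, minus strand, 30 nt: tggtcatctctaaaacaaTCGTAggcattc
chr2:92418270-92418292, plus strand, 23 nt: ttctgcgctctcttgatggtacc
chr2:92418270-92418297, plus strand, 28 nt: ttctgcgctctcttgatggtaccTCGTA
The libraries were made with an Illumina small RNA kit, and a 3′ adapter used in early versions of that kit begins with these letters. The sources used here give neither the adapter nor the way it was removed, and the part of adapter removal in these 3′ ends was not tested. With every sequence that has 3 or more of the letters left out, 73.8% shared a 5′ end with a longer sequence and 65.2% lay in the richest windows. Of the readable sequences of 18 to 21 nt with 3 or more of the letters, 88.7% shared a 5′ end, and of those with fewer letters 89.4%.

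The first base of the short sequences was U in 63.2% (62.7 to 63.6%), A in 20.3%, G in 9.11% and C in 7.46%. The U share was 73.0% at 18 nt, 73.0% at 19 nt, 73.1% at 20 nt and 69.1% at 21 nt, and 62.7, 61.0 and 60.7% at 22, 23 and 24 nt. Over the longer sequences it was 68.7%. The order depended on the place in the genome. Inside the richest windows the short sequences started with U more often than the longer ones (65.6 against 60.1%), and outside them less often (58.8 against 70.8%). Outside, A took the difference, with 25.9% of the short and 13.7% of the longer sequences. The U share was tied to the shared 5′ end: it was 70.7% among short sequences with the 5′ end of a longer one and 39.8% among the rest. It was lowest, at 23.3%, among those that lay inside a longer sequence and shared only its 3′ end. A at position 10 was found in 30.0% of the short and 32.6% of the longer sequences. Mean GC content was 41.5% at 18 nt, 44.1% at 21 nt, 47.6% at 22 nt and 47.7% at 23 nt.

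Most short sequences lay outside annotated exons. Genes were assigned by an exact match of the whole sequence to GENCODE vM21 transcripts on the listed chromosome, with shared matches split between classes. No exon match was found for 67.3% of the short and 40.7% of the longer sequences. Sense matches to protein-coding exons made 21.1% (20.7 to 21.5%) of the short and 52.1% of the longer sequences, and long noncoding exons made 8.11 and 3.73%. Antisense matches made 2.57 and 2.73%. Much of this gap went with the windows, since outside the richest ones protein-coding exons took 56.9% of the short and 63.2% of the longer sequences. Within messenger RNAs 43.4% of the short sequences lay in coding sequence, 51.3% in 3′ and 5.31% in 5′ untranslated regions, against 41.99, 54.0 and 4.01% of the longer ones. Outside the richest windows these shares were 45.3, 49.1 and 5.54% against 42.5, 53.4 and 4.07%. Counting sequences of 1 class only, the 5′ end was shared with a longer sequence for 85.4% of those in long noncoding exons, 81.9% of those without an exon match and 53.7% of those in protein-coding exons.

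Long noncoding RNAs held the genes with most short sequences and protein-coding genes had few. Gm49794, a long noncoding gene, had 661 short and 6910 longer sense sequences (8.73% short, 8.10 to 9.39%), which is 50.7 short sequences per kb of exon. Its short sequences spanned chr17:27491418-27504223, and the position of each gene below is likewise the mm9 span of its short sequences. Gm21269, at chr7:80961576-80983497, had 412 short sequences (7.22%, 33.1 per kb), and Gm10505, at chr17:27461991-27481744, had 279 (8.39%, 54.7 per kb). 1700001L05Rik had 199 (5.64%), Gm10619 had 123, 1700029M20Rik had 119, AC140207.2 had 117, Gm5878 had 106 and 4933440M02Rik had 86. In these 9 genes 59.0 to 74.8% of the short sequences started with U and 82.1 to 94.5% had the 5′ end of a longer one. Gm42418, the ribosomal-RNA-like gene at chr17:39983981-39985170, had 100 short and 1109 longer sequences (8.27%), of which 96 of the short ones shared a 5′ end but 12 of the 100 started with U, against 20.1% of its longer ones.

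Among protein-coding genes 4242 of 22028 had a short sense sequence, and 15553 had a longer one. 1700006A11Rik, at chr3:124104038-124124341, led with 80 short and 1319 longer sequences (5.72%, 4.56 to 7.07%) and, although outside the richest windows, shared the 5′ end in 78 of the 80. Nemp1, which encodes a nuclear envelope protein, had 66 (3.96%, 3.07 to 5.01%). Ago2, the slicing Argonaute of the microRNA pathway, at chr15:72926756-72937327, had 50 short and 1597 longer sequences (3.04%, 2.26 to 3.98%), with 47 sharing a 5′ end and 84.0% starting with U. Asb1 had 49, the translation inhibitor gene Eif4ebp2 had 48, the RNA helicase gene Ddx19b had 48, Elfn2 had 47, Tbl2 had 44 and the ubiquitin ligase gene Cbl had 43. Elfn2 had the highest short share of these genes (6.83%, 5.06 to 8.98%).

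The short share of a gene was compared among the 3301 genes with at least 100 sense sequences of 18 to 32 nt. Its median was 0.581% over 3181 protein-coding and 1.69% over 102 long noncoding genes. The 5 highest were Gm49794, 1700008K24Rik (62 short, 8.72%), the mitochondrial ribosomal RNA gene mt-Rnr2 (10 short, 8.62%, 4.21 to 15.3%), Gm10505 and 1700020N18Rik (24 short, 8.33%). The mt-Rnr2 sequences differed from the others in that none of the 10 started with U and 5 shared a 5′ end. At the other end 1051 genes had no short sequence. The 5 with most longer ones were Peak1 (810), Rest (717), Fam168a (712), Wasf2 (697) and Ubxn7 (664). For Peak1 a count of 0 allows a share of up to 0.370% (3 counts), and for Ubxn7 up to 0.452%. The gap between the classes depended on density. With up to 25 longer sequences per kb, the pooled share was 0.599% over 1186 protein-coding genes and 0.596% over 9 long noncoding genes. The long noncoding value rests on 7 short and 1168 longer sequences, so it is imprecise. At higher density the long noncoding share was the larger one. The protein-coding and long noncoding shares were 0.671 and 1.51% at 25 to 50 per kb and 0.786 and 1.54% at 50 to 100 per kb. They were 1.08 and 3.10% at 100 to 200 per kb. At 200 or more per kb the share was 1.90% over 27 protein-coding genes and 6.57% over 32 long noncoding genes.

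Marker genes of testis cell types held few of the 9000 short sequences with a sense match to a protein-coding gene. The counts are of small RNAs, not of messenger RNA. The 8 meiotic germ cell markers had 10 short and 976 longer sense sequences (1.01%, 0.487 to 1.86%; 0.354% without Ldhc, which had 7 of the 10), and the 8 spermatogonial markers had 10 and 1245 (0.797%). Over all protein-coding genes the share was 0.779%. The 10 haploid spermatid markers had 16 short and 131 longer sequences (10.9%, 6.35 to 17.1%). Odf1, an outer dense fibre protein of the sperm tail, had 7 short and 32 longer. The protamine gene Prm2 had 4 and 33, and the transition protein genes Tnp1 and Tnp2 had 3 and 33 and 2 and 6. The other 6 spermatid markers had none. Of these 16 short sequences 1 started with U and 11 shared a 5′ end with a longer one, and 13.7% of the longer ones started with U. The 8 Sertoli markers had no short and 139 longer sequences, which allows a share of up to 2.16%. Of the 6 Leydig markers, Insl3 had 2 short ones and the others none. The median number of longer sequences per length was 2.44 per kb for Sertoli markers, close to the 2.80 per kb over all protein-coding genes. It was lower for Leydig markers, at 0.104 per kb, and higher for the meiotic markers, at 58.4 per kb. These medians hide uneven lists. Ctsl held 98 of the 139 longer sequences of the Sertoli markers, and Star held 78 of the 84 of the Leydig markers.

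Short sequences also matched genes of the 2 small RNA pathways. Over all protein-coding genes 19.3% had a short sense sequence, and the short share was 0.779%. Of 17 piRNA pathway genes 11 had at least 1, with 22 short and 1824 longer sequences (1.19%, 0.748 to 1.80%), an interval that includes the share over all protein-coding genes. Piwil2, which encodes Mili, had 4 and the helicase gene Mov10l1 had 4, Piwil1 and Tdrd6 had 3 each, and Tdrd1, the gene removed in the third library, had 2 short and 131 longer. Of 9 microRNA pathway genes 8 had at least 1, with 67 short and 4409 longer (1.50%, 1.16 to 1.90%), and 50 of the 67 were from Ago2. Without Ago2 the share was 0.601% (0.350 to 0.960%). Ago3 had 5 short and 1253 longer (0.397%), and Dicer1 had 2 and 262.

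MicroRNAs made up a small part of the short sequences. Of the RefSeq table of 1738 mature microRNAs (build GRCm38.p6), 91 had at least 1 short sequence lying within them or within 3 nt beyond their ends. Together they held 164 short sequences (0.390%), of which 129 had the exact 5′ end of the microRNA and 57 were identical to it. The share was 0.601% (0.456 to 0.779%) at 22 nt and 0.320% at 23 nt. Outside the richest windows it was 1.61% (1.20 to 2.12%) at 22 nt and 0.746% at 23 nt. The microRNAs with most short sequences are shown as RefSeq gives them, with the seed, bases 2 to 8, in capitals.
mmu-miR-1839-5p, 8 short sequences: aAGGUAGAuagaacaggucuug
mmu-let-7d-5p, 5 short sequences: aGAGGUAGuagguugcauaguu
mmu-let-7b-5p, 4 short sequences: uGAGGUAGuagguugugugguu
mmu-miR-423-5p, 5 short sequences: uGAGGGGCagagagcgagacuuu
mmu-miR-7210-5p, 5 short sequences: uAACAUUGuagacaggcacaaag
mmu-miR-7230-3p, 5 short sequences: uUGAGUUGagacugucaguaggu
mmu-miR-140-3p, 4 short sequences: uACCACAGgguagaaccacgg
mmu-miR-191-5p, 4 short sequences: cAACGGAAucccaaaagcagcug
mmu-miR-7218-5p, 4 short sequences: uGCAGGGUuuaguguagaggg
mmu-miR-34b-5p, 3 short sequences: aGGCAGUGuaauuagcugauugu
mmu-miR-449a-5p, 3 short sequences: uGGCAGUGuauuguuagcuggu
mmu-miR-881-3p, 3 short sequences: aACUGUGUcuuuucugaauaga
The let-7 microRNAs, which share the seed GAGGUAG, formed the largest seed group, with 7 mature sequences and 23 short sequences. Besides the 2 shown, let-7c, let-7e, let-7g and let-7i had 3 short sequences each. The germ cell microRNAs miR-34b and miR-449a share the seed GGCAGUG and had 6 between them. The X-linked testis cluster had 14 in 11 mature sequences, miR-881-3p among them. The other microRNAs with 3 were miR-184-3p, miR-21a-5p, miR-29a-3p, miR-672-5p, miR-7230-5p and miR-93-5p.

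Not all entries of the microRNA table behaved alike in this list. The mature sequences of miR-7210, miR-7218 and miR-7230 lay in the richest windows, where 26 of the 164 short sequences in mature microRNAs were. Inside those windows 14 of 26 had the exact microRNA 5′ end, and outside them 115 of 138 (83.3%) did. The miR-1839-5p sequences overlap a small Cajal body RNA in the annotation, and 3 of its 8 had the exact 5′ end. By the same measure 153 longer sequences lay in a mature microRNA.

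Structural RNAs gave short sequences that were few in number but in several classes a larger share than over the whole list (1.90%). Small Cajal body RNAs had 20 short and 64 longer ones (23.8% short). Of these, 8 short and 8 longer ones were from Mir1839, the gene that holds miR-1839-5p, so this class overlaps the microRNAs above. Small nuclear RNAs had 34 short and 720 longer ones (4.51%). Small nucleolar RNAs had 23 and 461 (4.75%) and the 2 mitochondrial ribosomal RNAs 18 and 165 (9.84%). In sequences that matched this class alone, 16.2% of 74 short ones started with U and 62.2% had the 5′ end of a longer one. Nuclear ribosomal RNA genes in the annotation had 1 short and 327 longer sequences (0.305% short).

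Short sequences took part in 10-nt overlaps on opposite strands, the spacing known from ping-pong pairs, in which cleavage guided by 1 piRNA sets the 5′ end of its partner. Between short and longer sequences there were 514 pairs at an overlap of 10 nt, against 137 ± 32.1 (mean ± SD over the overlaps of 1 to 9 and 11 to 18 nt) and at most 180 at another overlap, a ratio of 3.76. When sequences that share a 5′ end were counted as 1, 238 pairs remained at 10 nt, and the other overlaps had a mean of 79 and at most 99 pairs, a ratio of 3.01. The ratio was 4.71 for 18 to 21 nt, 3.76 for 22 nt, 3.52 for 23 nt and 3.09 for 24 nt, and it was 3.88 inside and 2.80 outside the richest windows. The pairs involved 313 short sequences (0.809% of those with a strand call), and 281 of them lay in the richest windows. The 5′ end of a longer sequence was shared by 274 of the 313 (87.5%), against 82.2% of the others with a strand call. For these 274 the longer sequence at that 5′ end makes the same overlap, so their pairs are not separate from those of longer sequences. Among longer sequences 0.290% had such a partner of 24 to 32 nt, at a ratio of 2.20. Inside the richest windows 1.03% of the short and 0.821% of the longer sequences had one, at ratios of 3.88 and 2.78. Of the 313, 78.0% (72.9 to 82.4%) started with U and 40.6% (35.1 to 46.2%) had A at position 10, against 64.1 and 30.3% of the others with a strand call. In such a pair base 10 of the short sequence is the complement of the partner's first base. Its A share therefore restates how often the partner starts with U and is not a separate measure. The window chr17:27460001-27480000 held 66 of the 313 short sequences, and without it the ratio of short with longer pairs was 3.57.

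The pair with most listed sequences at both 5′ ends, among pairs outside exons whose short sequence had U at position 1 and A at position 10, shows the geometry. Both strands are written 5′ to 3′, and capitals mark the 10 overlapping bases.
chr17:27461849-27461867, minus strand, 19 nt: TGATTTCAAAtatcctgtc
chr17:27461858-27461886, plus strand, 29 nt: TTTGAAATCAgggatgtctcgggaaactc
chr17:27461858-27461880, plus strand, 23 nt: TTTGAAATCAgggatgtctcggg
chr17:27461838-27461867, minus strand, 30 nt: TGATTTCAAAtatcctgtcccgttgtcaga
The minus-strand 5′ end had 5 short and 6 longer sequences, and the plus-strand 5′ end had 1 short and 5 longer ones. Short sequences thus stood on both sides of this pair.

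Other geometries were also counted. Opposite-strand pairs of short sequences of equal length were too few to look for the 2-nt 3′ overhangs that Dicer makes: at any overlap there were 0 pairs at 19, 20 and 21 nt, 4 at 22 nt and 38 at 23 nt. The next 5′ end of a longer sequence directly after the 3′ end of a short one, the spacing of phased piRNA production, was found for 7144 short sequences, against a mean of 7062 and at most 7395 at the other distances up to 20 nt. Outside the richest windows this count was 811 against a mean of 726 and at most 783. Of all short sequences, 86.4% lay inside a longer one at the same place, and 0 of 42069 lay inside one listed at another place. How far the list kept sequences with several places in the genome is not known. Its part in the lengths and in the microRNA share was not tested.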

How the data were processed

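Small RNAs bound to Tdrd1 or Mili in mouse testis were sequenced in 3 libraries, and the authors deposited 1 pooled list of distinct sequences with their chromosome and range on mm9, the build named in the submitters' processing notes. The deposited list holds letters and positions, with no count, signal or score. Not given in the sources used here are the aligner, the adapter removal and the filters. In all rows the range was as long as the sequence.

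From the list, lengths, first bases, strands (from overlaps of at least 12 nt), shared ends, following letters, windows of 20 kb and opposite-strand overlaps were computed with Python 3.11.15, numpy, pandas, scipy and numba. The build differed from that of the gene annotation, so genes were found by exact match of letters to GENCODE vM21 transcripts on the listed chromosome, and microRNAs by match to RefSeq hairpins. The steps were tested on simulated sequences with known strands, ends and pairs. With 1 library per group and no library column, no test was run; the precision of a share is given by its exact 95% interval.

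Genes were named by rule: the 10 protein-coding and 10 other genes with most short sense sequences, the 5 highest and 5 lowest short shares among genes with at least 100 sequences, the 10 windows with most short sequences, microRNAs with at least 3, and genes of the marker and pathway lists. One gene that the rule names is not reported here. The printed examples of following letters and of the opposite-strand pair were chosen after their values were seen. The short sequences and all lists were chosen with earlier results of these data known. Alternatives covered the length limit, windows, strand overlap, comparison lengths, counting per 5′ end and match rules.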

Additional observations from a re-analysis of the deposited data

How the results depend on the processing

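Of 56 alternatives to 11 results, 11 stayed within the interval of the reported value and 45 moved out of it. For the overlap ratio this interval was not an exact one. It ran from 3.52 to 3.99, set by the SD of the other overlaps relative to their mean. Of the 56 alternatives, 10 were chosen after seeing the data. The order of U at the first base turned: short sequences had it less often than longer ones (63.2 against 68.7%), but more often with 18 to 21 nt (71.3%) and inside the richest windows (65.6 against 60.1%). With 18 to 22 nt in place of 18 to 23 nt, short sequences were 0.755% of the list, started with U in 66.4%, shared the 5′ end in 77.7% and the 3′ end in 54.2%, were followed by U in 42.6%, lay in the richest windows in 66.7%, in protein-coding exons in 19.7% and in mature microRNAs in 0.495%. With 18 to 21 nt these were 71.3% for U, 79.5% for the 5′ end, 46.7% for the 3′ end, 54.9% for the following U, 66.0% for the windows, 19.9% for protein-coding exons and 4.71 for the overlap ratio. Outside the richest windows the values were 0.831% of the list, 58.8% for U, 51.6% for the 5′ end, 30.3% for the 3′ end, 38.2% for the following U, 56.9% for protein-coding exons and 2.80 for the ratio. Inside them they were 6.08%, 65.6%, 88.6%, 72.1%, 32.1% and 1.86% in the same order, without the ratio. Counting each 5′ end once gave 60.8% for U, 24.5% for protein-coding exons and a ratio of 3.01. Windows of 10 kb held 58.3%, windows of 50 kb 68.2% and the 20 richest windows 33.8%. Against sequences of 24 to 28 nt, 74.9% shared the 5′ end and 56.3% the 3′ end. The following base read only from longer sequences with the same 5′ end was U in 34.7%. Mature microRNAs with no overhang held 0.226%. Leaving out sequences followed by 3 or more of the 5 letters gave 1.72% of the list, 62.0% for U, 73.8% for the 5′ end, 58.3% for the 3′ end and 20.4% for protein-coding exons. Without the gene with most short sequences, the short share was 0.601% for the microRNA pathway and 0.354% for the meiotic markers. The cause of these shifts was not tested beyond the change that each alternative makes.

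The list gives no reads per sequence, so shares weigh a sequence read once like one read many times, and rare short sequences are limited by depth in a way that cannot be measured here. The 3 libraries differ in antibody, genotype and age, and their parts in the list cannot be told apart. No paired analysis was possible because the list carries no library, and each group has 1 library.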
